A study of Mus musculus with 6 samples.

Results

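The genes of the proteasome were followed in mRNA microarrays of mouse spleen, in mice given schisandrol A after cyclophosphamide and in the model mice they were set against. Members were taken by name: every probe apart from controls whose RefSeq transcript carried a symbol that starts with Psma, Psmb, Psmc, Psmd, Psme, Psmf or Psmg and goes on with a number. The rule found 61 probes for 50 genes, out of 27234 probes with a symbol for 20659 genes. Of the 50 genes, 48 code for proteasome proteins or their dedicated helpers, and Psmc3ip and Psme3ip1 only share the start of the symbol. The 48 fall into 14 core genes, 17 cap genes, 5 genes of the immunoproteasome and PA28, 7 assembly factors, 3 other activators or inhibitors and 2 core genes restricted to a tissue.

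The proteasome is the protease that degrades proteins marked with ubiquitin. Its core is a barrel of alpha and beta rings, with the cutting sites on beta subunits inside, and the regulatory cap binds ubiquitin chains, removes them and unfolds the substrate with a ring of ATPases before passing it to the core. In lymphoid organs such as the spleen, many cells also carry the immunoproteasome, in which the catalytic subunits are exchanged for Psmb8, Psmb9 and Psmb10. These subunits, like the activator PA28 (Psme1 and Psme2), are known to be induced by interferon gamma and favour peptides that fit MHC class I molecules.

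All 6 arrays came from spleens of male ICR mice, an outbred strain, 8 weeks old. Both groups had received cyclophosphamide, an alkylating drug that depletes lymphocytes, at 40 mg/kg for 5 days by intraperitoneal injection. The MOD group (arrays 1, 2 and 3) was then given water and the SA-H group (arrays 4, 5 and 6) schisandrol A, a lignan of Schisandra fruit, by mouth, at 1000 mg/kg per day in the labels, where the study's methods give another dose and duration. Day 5 stands in the labels for MOD and day 28 for SA-H, and where that holds, treatment and day cannot be told apart. Nothing states that the arrays of a group came from separate mice, so each p-value reflects only how far these samples scatter, and that scatter may be technical.

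The 75th percentile of the signal lay between 220 and 868 and was lowest on SA-H array 4, and 43.1% to 73.9% of the 43020 spots per array were well above background. Over tested genes, SA-H array 4 correlated with the MOD arrays at r of 0.838 to 0.897, below the other SA-H arrays (0.909 to 0.960). Spleen markers were present, with 8 of 8 B cell and 10 of 10 T cell markers well above background on every array of at least 1 group. The extraction text in the labels also speaks of liver, and of 7 liver markers on the array 1 was well above background on every array of at least 1 group. The 5 fat markers that could be tested were all lower in the SA-H group (median log2 change -2.47), where 12.5% of all genes tested were lower. The summed fat level, over 7 markers and relative to the 75th percentile, was 8.76 to 13.3 in the MOD group and 4.10 to 5.53 in the SA-H group, and Lep and Plin1 were too dim to test. Of the other markers tested, 1 of 7 B cell, 0 of 10 T cell, 1 of 7 macrophage, 0 of 7 neutrophil and 0 of 8 erythroid markers were higher (10.8% of all) and 1 macrophage, 1 neutrophil and 2 erythroid markers lower (12.5% of all). The change was negative in 5 B cell, 5 T cell, 5 macrophage, 4 neutrophil and 7 erythroid markers, and in 52.3% of all genes. The B cell marker Cd22 was not tested because of an outlier spot, and was at 1.99 with that spot kept. The summed neutrophil level was 269 to 361 in the MOD group and 272 to 847 in the SA-H group, highest on array 4, and the summed erythroid level 287 to 361 and 203 to 431. The part of these markers or of array 4 in the changes below was not tested beyond the values given without that array. Since whole spleen was measured, fewer cells of a type and less RNA per cell cannot be told apart.

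Promoters of the genes that the results turn on are printed first, and were searched for letters that known regulators of proteasome genes can bind. RefSeq windows on GRCm38.p6, from 250 bases before to 50 after the start site, were matched for 40 of the 48 genes. Each was searched on both strands for the letters of an interferon-stimulated response element (ISRE, GAAA followed by any 2 bases and GAAA), TTCNNNGAA of a gamma-activated site (GAS), TGACNNNGC of an antioxidant response element (ARE), which Nfe2l1 and Nfe2l2 bind, and CCAAT, which NF-Y binds. The 6 windows shown are those of PA28 and Psmb8, for the interferon letters, and of Psmd14, Psmc6 and Psme4, the 3 of the 7 genes lower in the SA-H group that hold a match. The windows of the other 4, Psmd5, Psmf1, Psmd6 and Psmd11, hold none of the 4 motifs. They are written 5′ to 3′ on the strand of the gene, with matches to the letters searched in capitals.
Psme1, chr14:55578244-55578543, plus strand, ISRE letters on the opposite strand: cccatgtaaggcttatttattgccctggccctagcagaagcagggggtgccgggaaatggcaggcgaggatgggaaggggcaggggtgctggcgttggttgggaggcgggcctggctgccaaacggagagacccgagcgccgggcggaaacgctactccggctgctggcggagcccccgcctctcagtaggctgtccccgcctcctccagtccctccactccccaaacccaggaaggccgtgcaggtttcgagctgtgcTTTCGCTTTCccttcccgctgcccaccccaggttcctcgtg
Psme2, chr14:55591052-55591351, minus strand, no match: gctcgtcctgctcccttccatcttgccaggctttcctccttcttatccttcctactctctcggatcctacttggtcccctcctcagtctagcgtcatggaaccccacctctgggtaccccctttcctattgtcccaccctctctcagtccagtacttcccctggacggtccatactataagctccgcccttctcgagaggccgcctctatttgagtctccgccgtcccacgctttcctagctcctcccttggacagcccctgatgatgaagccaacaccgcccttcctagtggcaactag
Psmb8, chr17:34197945-34198244, plus strand, GAS letters: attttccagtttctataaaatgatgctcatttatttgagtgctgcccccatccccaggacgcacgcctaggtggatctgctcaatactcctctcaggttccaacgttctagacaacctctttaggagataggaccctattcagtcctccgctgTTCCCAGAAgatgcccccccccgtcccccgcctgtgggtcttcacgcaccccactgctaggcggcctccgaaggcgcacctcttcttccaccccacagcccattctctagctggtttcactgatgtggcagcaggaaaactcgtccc
Psmd14, chr2:61711444-61711743, plus strand, CCAAT letters on both strands: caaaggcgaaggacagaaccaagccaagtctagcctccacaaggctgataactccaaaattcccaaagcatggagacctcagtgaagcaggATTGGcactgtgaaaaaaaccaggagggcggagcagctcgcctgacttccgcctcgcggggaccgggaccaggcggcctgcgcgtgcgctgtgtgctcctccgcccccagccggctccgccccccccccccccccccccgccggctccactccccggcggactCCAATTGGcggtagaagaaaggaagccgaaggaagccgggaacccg
Psmc6, chr14:45329574-45329873, plus strand, ARE letters on the opposite strand: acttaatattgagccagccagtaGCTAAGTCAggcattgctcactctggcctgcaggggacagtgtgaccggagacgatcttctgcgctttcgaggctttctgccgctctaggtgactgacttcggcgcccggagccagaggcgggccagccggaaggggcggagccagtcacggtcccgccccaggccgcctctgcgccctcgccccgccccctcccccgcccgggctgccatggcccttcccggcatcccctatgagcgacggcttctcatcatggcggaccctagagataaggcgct
Psme4, chr11:30771525-30771824, plus strand, ARE letters on the opposite strand: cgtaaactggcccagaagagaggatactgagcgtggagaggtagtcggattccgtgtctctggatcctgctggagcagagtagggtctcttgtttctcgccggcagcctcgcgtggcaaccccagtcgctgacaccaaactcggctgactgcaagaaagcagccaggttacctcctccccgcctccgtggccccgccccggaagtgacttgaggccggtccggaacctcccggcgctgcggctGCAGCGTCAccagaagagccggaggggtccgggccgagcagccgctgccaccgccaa

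The ISRE letters of Psme1 lay at positions 10 to 19 after the start site, and those of GAS in Psmb8 at -97 to -89. In Psmd14 a CCAAT match lay at -159 to -155, and the others overlapped each other at 5 to 9 and 8 to 12. The ARE letters lay at -227 to -219 in Psmc6 and at -7 to 2 in Psme4. Over the 40 genes, CCAAT was found in 14 (35.0%, against 37.4% of all 32851 promoter windows), ARE letters in 6 (15.0% against 12.4%), GAS letters in 3 (7.50% against 8.30%) and ISRE letters in 5 (12.5% against 3.44%). The 5 genes with ISRE letters were Psme1, Psmb3, Psmd4, Psmd9 and Psmg4, of which only Psme1 belongs to the group induced by interferon. A match is only a match of letters, and the missing match in both windows of Psme2 covers only these 300 bases. Psmb9, Tap1, Psmb8 and Tap2 follow each other on chromosome 17, and Emc9 is the only protein-coding gene between Psme1 and Psme2 on chromosome 14.

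Compared with the MOD group, most proteasome genes in the SA-H group did not pass the test, and those that did were mainly cap genes and free-standing regulators that were lower. Of the 48 genes, 45 were tested. At an unadjusted p under 0.05, 7 were lower (Psmd14, Psmd5, Psmc6, Psmf1, Psme4, Psmd6 and Psmd11), where 12.5% of all 14474 tested genes and unnamed targets were lower, and 1 was higher (Psme2), where 10.8% of all were higher. With a fold change of at least 2 as well, 4 were lower (5.03% of all) and 0 were higher (7.74% of all). No proteasome gene passed an adjusted p of 0.05, nor did any other gene, and the smallest adjusted p over all genes was 0.0712 with limma. All 3 MOD arrays lay above all 3 SA-H arrays for 11 proteasome genes (20.7% of all tested) and below them for 1 (11.9% of all). The share of proteasome genes called lower was thus near that of all genes, and the share called higher was below it. With the arrays scaled by their median, which moved the median change of all genes from -0.04 to -0.36, 8 were lower (15.5% of all) and 0 higher (6.95% of all), and Psmd14, Psmd5, Psme4 and Psmf1 passed an adjusted p of 0.05, as did 7.56% of all tested.

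**Figure D1:**
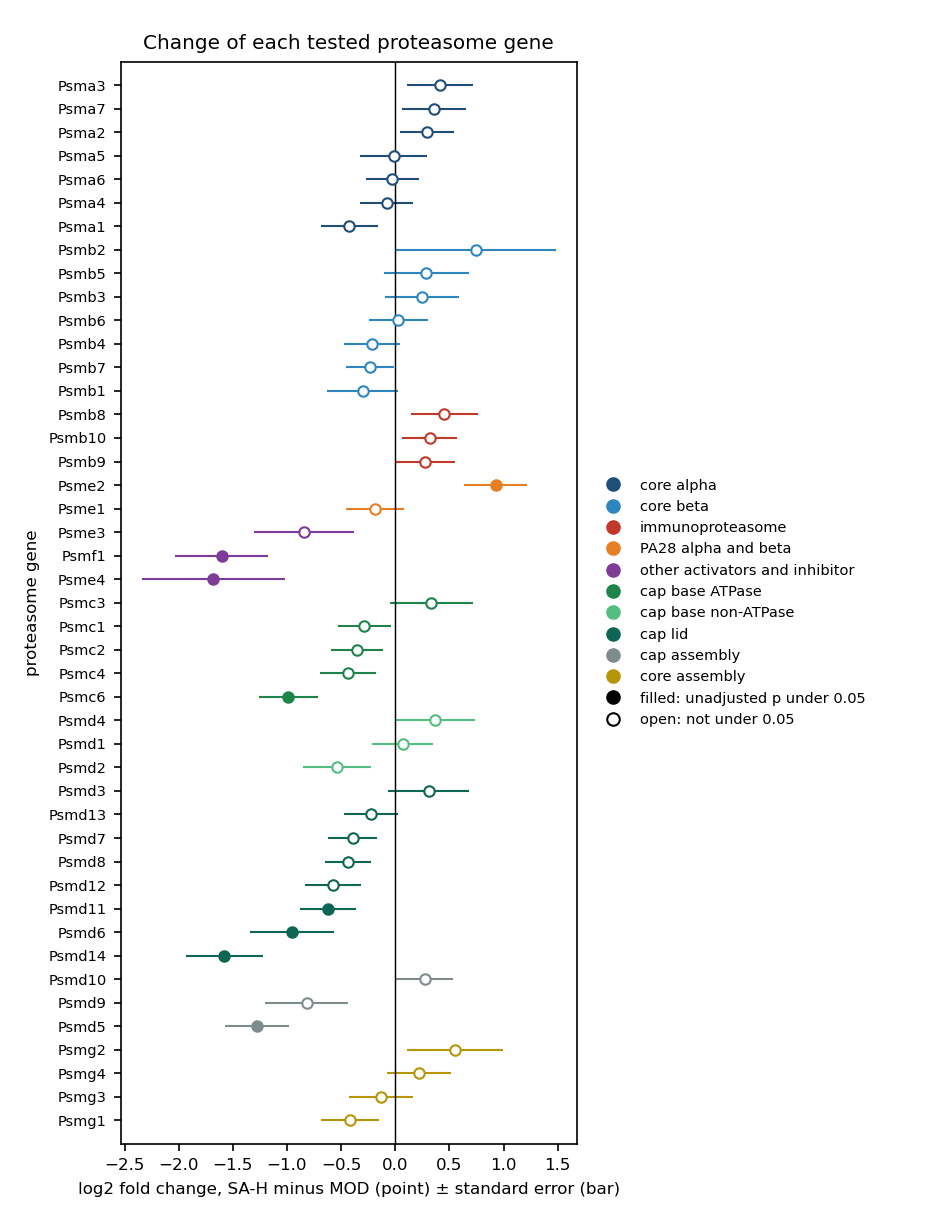
Log2 fold change of each tested proteasome gene, SA-H minus MOD (point) with its standard error (bar), by group and coloured by group. Psme2 lies highest at 0.93, and Psmd14, Psmf1 and Psme4 lie lowest, between -1.58 and -1.68.

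By group, the medians differed in sign. The median log2 change was 0.01 over the 14 core genes, -0.41 over the 16 tested cap genes, 0.32 over the 5 genes of the immunoproteasome and PA28, -0.13 over the 7 assembly factors and -1.60 over the 3 other activators and inhibitors, beside -0.04 over all genes tested. Relative to that overall median, the cap lay at -0.38, the core at 0.04 and the immunoproteasome and PA28 at 0.36. Scaling by the median shifts every gene alike and leaves these distances as they are. Members were taken by symbol, so the cap subunits Sem1 and Adrm1 are not in the cap list. Sem1 had a change of 0.45 and did not pass the test. Adrm1 was not tested because of an outlier spot, and was at 1.20 with that spot kept. Of the 16 cap genes 12 had a negative change and 4 a positive one, where 52.3% of all genes were negative, and all 3 of the other activators and inhibitors were negative. Among the latter, Psmf1 and Psme4 entered the test only through the MOD group, which favours a negative change. The median of -1.60 is the value of Psmf1 itself, so it is no measure of that group. On the scan days with arrays of both groups, day 1 (MOD arrays 1 and 3, SA-H array 6) and day 2 (MOD array 2, SA-H array 4), the medians were -0.31 and -0.34 for the cap, 0.37 and 0.42 for the immunoproteasome and PA28, and 0.02 and 0.39 for the core. These medians describe the lists and were not tested.

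**Figure D2:**
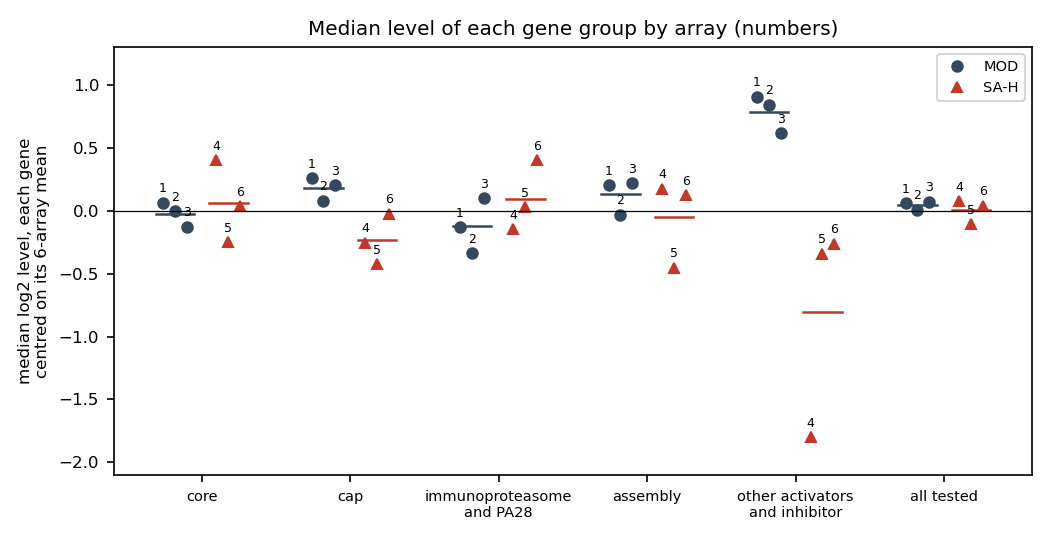
Median level of each gene group on each array, on the log2 scale, after the mean of each gene over the 6 arrays was subtracted, with array numbers beside the points and the mean of the 3 arrays of a group as a line. The cap lay at 0.26, 0.08 and 0.20 in the MOD group and at -0.26, -0.43 and -0.02 in SA-H.

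The core genes as a whole did not pass the test in either direction (0 of 14, where 12.5% of all genes were lower and 10.8% higher). Of their changes 7 were negative and 7 positive. The alpha subunits form the outer rings that gate the barrel. Among them Psma3 had the largest positive change, with log2 levels, with the 75th percentile of the array set to 0, of 4.98, 4.88 and 4.78 in the MOD group and 5.77, 4.77 and 5.34 in the SA-H group (change 0.41, standard error 0.30). Psma1 had the largest negative one, with 4.76, 4.67 and 4.54 against 4.55, 3.85 and 4.30 (change -0.42, standard error 0.26). In both genes the groups overlapped, and each was called when 1 array was left out, Psma3 when SA-H array 5 was omitted (0.67) and Psma1 when SA-H array 4 was (-0.58). Psma1 was also called lower with quantile normalization (-0.64) and with normexp background correction (-0.62). The other alpha genes, Psma2, Psma4, Psma5, Psma6 and Psma7, ranged from -0.08 to 0.36.

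The beta subunits that cut are Psmb5, with chymotrypsin-like activity, Psmb6, with caspase-like activity, and Psmb7, with trypsin-like activity. Psmb5 was at 5.22, 5.01 and 5.53 in the MOD group and at 6.24, 4.78 and 5.61 in the SA-H group, a change of 0.29 (standard error 0.39). Its SA-H values spread on both sides of the MOD values, with array 4 highest and array 5 lowest of all 6, and a second Psmb5 probe gave 0.01. Psmb6 was at 5.22, 4.97 and 5.05 against 5.48, 4.70 and 5.13 (change 0.03, standard error 0.27), with the same order of the SA-H arrays. Psmb7 was at 1.01, 0.93 and 0.91 against 0.53, 0.75 and 0.86 (change -0.23, standard error 0.22), and its groups did not overlap although the difference did not pass the test (adjusted p = 0.53). Of the beta subunits that do not cut, Psmb2 had the widest spread, with 1.64, 3.08 and 1.92 against 4.48, 2.82 and 1.56 (change 0.74, standard error 0.74), and the change was -0.02 without SA-H array 4. Psmb1 had the largest negative change, with 2.82, 2.27 and 2.75 against 1.75, 2.49 and 2.70 (change -0.30, standard error 0.32), and was at -0.020 without SA-H array 4. Psmb3 and Psmb4 were at 0.25 and -0.22, with overlapping groups.

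Psma8, a core gene of the testis, and Psmb11, a core gene of cortical epithelium in the thymus, were not tested because their probes were too dim. Psma8 was well above background on MOD array 2 and SA-H array 5 only, and Psmb11 on MOD array 2 only.

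The regulatory cap has a base, with the ATPase ring (Psmc1 to Psmc6) and scaffold and ubiquitin-binding subunits, and a lid built around the deubiquitinase Psmd14. Of 16 tested cap genes, 4 were lower (Psmd14, Psmc6, Psmd6 and Psmd11, where 12.5% of all genes were) and 0 were higher (10.8% of all). All 3 MOD arrays lay above the SA-H arrays in 7 of the 16 (20.7% of all genes), with Psmc2, Psmd7 and Psmd8 beside those 4. Those 3 had changes of -0.35, -0.39 and -0.44 and did not pass the test.

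Psmd14, which cuts the ubiquitin chain off the substrate as it enters, was at 1.19, 1.07 and 1.14 in the MOD group and at -1.21, -0.14 and 0.01 in the SA-H group. The MOD values lay within 0.12 of each other, and each SA-H value was at least 1.06 below the lowest of them. The mean fell from 1.13 ± 0.06 to -0.45 ± 0.66 (SD, n = 3 in each group), a change of -1.58 (standard error 0.35, limma adjusted p = 0.089) or 2.98-fold. It was -1.16 and -2.27 within scan days 1 and 2, -1.20 without SA-H array 4, and passed an adjusted p of 0.05 with the scan day as a block (adjusted p = 0.036). SA-H array 5, alone on its scan day, does not count in that fit, and 7.43% of all genes passed there.

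The other lid genes moved less. Psmd6, a structural subunit of the lid, was at 2.81, 2.36 and 2.17 against 0.70, 1.87 and 1.90 (change -0.95, standard error 0.39, adjusted p = 0.20). Array 4 was the lowest, by 1.17 on the log2 scale, and without it the change was -0.56 and the call was lost. Psmd11, which ties the lid to the base and the core, was at 2.04, 1.75 and 1.76 against 0.88, 1.32 and 1.49 (change -0.62, standard error 0.26, adjusted p = 0.21). The SA-H values were all below the MOD values, and the call was lost whichever of the 6 arrays was left out. Among the lid genes taken by symbol, only Psmd3 had a positive change, at 4.16, 4.01 and 4.00 against 5.08, 3.65 and 4.36 (change 0.31, standard error 0.37). Without SA-H array 4 it was at -0.05. The lid subunit Sem1, listed with the partners below, was at 0.45 with overlapping groups. For Psmd12, the brighter probe gave -0.57 and a dimmer one -1.24, and Psmd13 was at -0.23.

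In the base, the ATPase Psmc6 was at 3.31, 3.04 and 3.68 in the MOD group and at 2.39, 2.08 and 2.59 in the SA-H group. The groups were apart and array 4 did not stand out among the SA-H arrays. The change was -0.99 (standard error 0.27, limma adjusted p = 0.11), with -0.91 and -0.65 within scan days 1 and 2. The other ATPases Psmc1, Psmc2 and Psmc4 had changes of -0.29, -0.35 and -0.44. Psmc3 was at 4.57, 4.62 and 4.60 against 5.72, 4.22 and 4.85 (change 0.33, standard error 0.38), which was -0.06 without SA-H array 4. Psmc5 was not tested, because its spot on SA-H array 5 was called an outlier by the scanner software. Its other levels were 3.72, 3.34 and 3.87 in the MOD group and 4.09 and 4.22 in the SA-H group, and with that spot kept the change was 0.26 (adjusted p = 0.61).

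The remaining base genes did not pass the test. Psmd4, a ubiquitin receptor, was at 4.89, 4.80 and 5.12 against 6.04, 4.66 and 5.22 (change 0.37, standard error 0.37), which was 0.0039 without SA-H array 4 and 0.69 on leaving out SA-H array 5. Psmd2, a scaffold that docks ubiquitin-like domains, was at 2.91, 2.50 and 3.39 against 2.48, 2.05 and 2.66 (change -0.54, standard error 0.31). The groups overlapped in both. Psmd1, the other scaffold, was at 0.07.

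**Figure D3:**
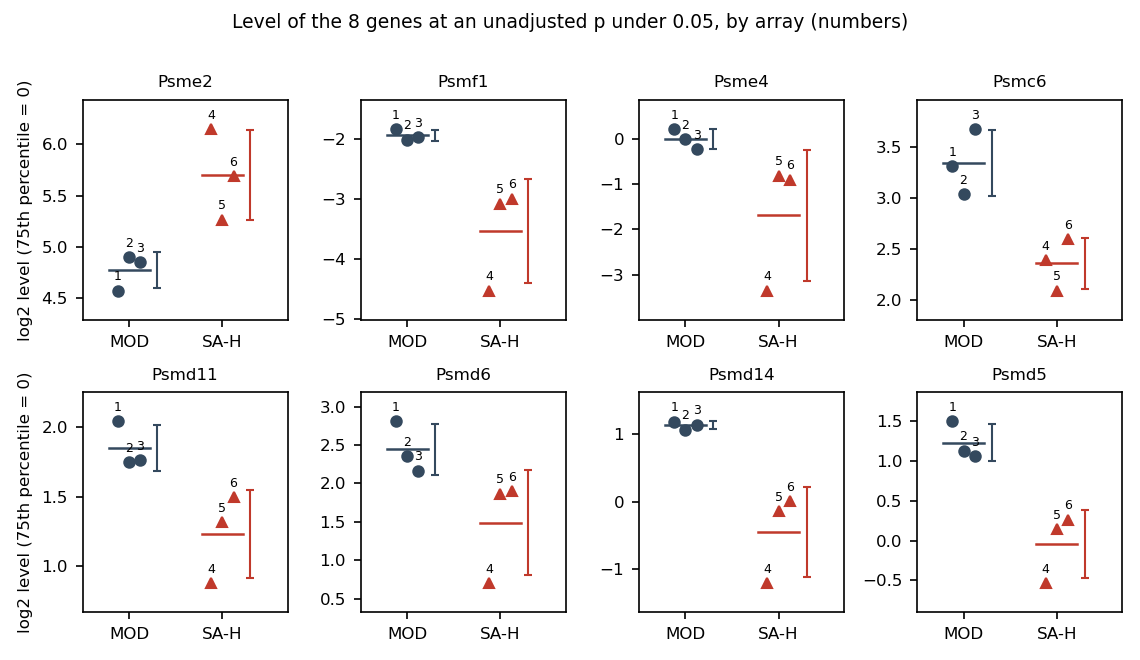
Log2 level on each array, relative to its 75th percentile, of the proteasome genes with an unadjusted p under 0.05, with group means as lines, 1 SD on either side as bars and the array numbers beside the points. In the 7 lower genes every SA-H array lies below every MOD array, and in Psme2 every SA-H array lies above.

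The immunoproteasome and PA28 were the group with changes mainly above 0 (4 of 5, where 47.7% of all genes were positive). Of the 5 genes 1 was higher (10.8% of all). Psmb8, which replaces Psmb5, was at 2.79, 2.58 and 3.37 in the MOD group and at 2.99, 3.46 and 3.64 in the SA-H group (change 0.45, standard error 0.31, adjusted p = 0.39). Psmb9, which replaces Psmb6, was at 3.54, 3.09 and 3.67 against 3.42, 3.73 and 3.97 (change 0.28, standard error 0.27). Psmb10, which replaces Psmb7, was at 2.62, 2.43 and 2.74 against 3.14, 2.57 and 3.03 (change 0.32, standard error 0.25). In all 3 genes the groups overlapped and none passed the test. With the arrays scaled by their median, which took the same 0.321 from every gene, Psmb9 and Psmb10 were at -0.043 and -0.0046, above the overall median of -0.36.

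To compare an immunoproteasome subunit with the subunit it replaces without the scaling of the array, the difference of the levels was taken within each array, and only its change between groups was read. The change was 0.16 for Psmb8 minus Psmb5 (exact permutation p = 0.7), 0.25 for Psmb9 minus Psmb6 (exact p = 0.5) and 0.55 for Psmb10 minus Psmb7 (exact p = 0.2, two-sided, and 0.6 after Benjamini-Hochberg adjustment over the 3 pairs). With 3 arrays against 3 the smallest p is 0.1, so no pair could pass 0.05. Psmb10 minus Psmb7 was 1.61, 1.51 and 1.83 in the MOD group and 2.61, 1.82 and 2.17 in the SA-H group, with an overlap of MOD array 3 and SA-H array 5 only. That pair was positive on both scan days, at 0.45 and 1.11, whereas Psmb8 minus Psmb5 was 0.33 on day 1 and -0.81 on day 2, and Psmb9 minus Psmb6 was 0.37 and -0.18.

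**Figure D4:**
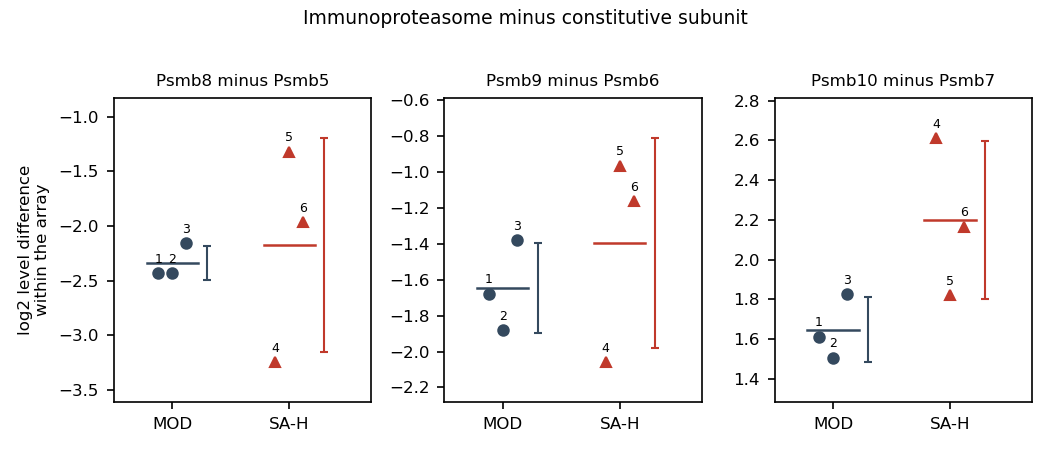
Difference in log2 level, within each array, between an immunoproteasome subunit and the constitutive subunit it replaces, for MOD and SA-H arrays, with group means as lines and 1 SD on either side as bars. The MOD arrays of the Psmb8 pair lie between -2.43 and -2.16, within the range of the SA-H arrays (-3.25 to -1.32).

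Psme2, the beta chain of PA28, was the only proteasome gene that was higher. It was at 4.57, 4.90 and 4.85 in the MOD group and at 6.15, 5.27 and 5.69 in the SA-H group, and every SA-H array lay above every MOD array. The mean was 4.77 ± 0.18 in the MOD group and 5.70 ± 0.44 in the SA-H group (SD, n = 3 in each), a change of 0.93 (standard error 0.29, limma adjusted p = 0.14). It was 0.98 and 1.25 within scan days 1 and 2 and 0.70 without SA-H array 4, and the call was lost without MOD array 1 and with the arrays scaled by their median. A second Psme2 probe was at 1.82, 1.60 and 1.99 against 1.54, 2.21 and 2.29, a change of 0.21 with overlapping groups. Within scan days 1 and 2 it gave 0.38 and -0.06. SA-H array 4 was the highest of the 6 arrays with the first probe and the lowest with the second. The 2 probes of this gene thus disagreed in size, and on array 4 also in direction.

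Psme1, the alpha chain that assembles with Psme2 into the same ring, was measured with 10 spots per array. It was at 4.33, 3.92 and 4.53 in the MOD group and at 3.87, 3.98 and 4.36 in the SA-H group (change -0.19, standard error 0.27, adjusted p = 0.69), with overlapping groups and -0.06 and -0.05 within the scan days. Whether the changes of Psme1 and Psme2 differed from each other was not tested.

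Among the other activators and the inhibitor, 2 of 3 were lower (12.5% of all genes), and both were dim in the SA-H group. They entered the test only through the MOD group, which favours a negative change. Among probes well above background on all 6 arrays, 5 proteasome genes were lower (12.4% of all). Psmf1 codes for PI31, named for its inhibition of the core in vitro. It was at -1.83, -2.01 and -1.96 in the MOD group and at -4.54, -3.08 and -2.996 in the SA-H group, and was well above background on 3 of 3 and 1 of 3 arrays. The MOD values lay close together and the highest SA-H value lay 0.99 below the lowest of them. The change was -1.60 (standard error 0.43, limma adjusted p = 0.11), -1.10 without SA-H array 4, and passed an adjusted p of 0.05 with the scan day as a block (adjusted p = 0.042). With normexp background correction it was -0.51 and the call was lost, and its size is uncertain because 2 of the 3 SA-H values were not well above background.

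Psme4 codes for PA200, an activator linked to the degradation of acetylated histones. It was at 0.22, -0.01 and -0.24 in the MOD group and at -3.35, -0.82 and -0.90 in the SA-H group, and was well above background on 2 of 3 SA-H arrays. Array 4 lay far below the others, under the lowest signal that was well above background there (-2.59). The change was -1.68 (standard error 0.66, adjusted p = 0.19), and without that array it was -0.85 and still past an unadjusted p of 0.05 in limma. A second Psme4 probe was dim on most arrays. Psme3, the nuclear activator PA28 gamma, was at 3.39, 4.23 and 3.42 against 3.77, 2.56 and 2.18 (change -0.85, standard error 0.46), with overlapping groups. Psme3 was called with the scan day as a block (-0.90), with normexp (-1.02) and without SA-H array 4 (-1.31), and was at -1.23 and -0.46 within scan days 1 and 2.

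Of the 7 assembly factors 1 was lower, where 12.5% of all genes were lower. Psmd5, a chaperone that holds ATPase subunits during assembly of the base, was at 1.50, 1.13 and 1.06 in the MOD group and at -0.54, 0.14 and 0.26 in the SA-H group. The groups were well apart, with the lowest MOD value 0.80 above the highest SA-H value. The change was -1.28 (standard error 0.30, limma adjusted p = 0.092) or 2.42-fold, with -1.02 and -1.67 within scan days 1 and 2 and -1.03 without SA-H array 4. The base chaperone Psmd9 was at -0.82 and Psmd10 (gankyrin) was at 0.83, 0.21 and 0.81 against 0.71, 0.89 and 1.06 (change 0.27, standard error 0.27). A second Psmd10 probe gave -0.51, so no direction is given for that gene. Of the chaperones of the core rings, Psmg2 was at 1.63, 1.59 and 1.18 against 2.93, 1.19 and 1.94 (change 0.55, standard error 0.44). It was 0.099 without SA-H array 4, and it was called on leaving out SA-H array 5 (0.97) and in the scan-day block (0.88). Psmg1 was at 1.76, 1.80 and 1.92 against 1.82, 1.05 and 1.35 (change -0.42, standard error 0.27), and was called without SA-H array 4 (-0.63). Psmg3 and Psmg4 were at -0.13 and 0.22.

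Of the genes that only share the start of the symbol, Psme3ip1, whose product binds PA28 gamma, was lower (change -1.03, standard error 0.28, limma adjusted p = 0.11). Its levels were 1.03, 1.06 and 1.39 against -0.30, 0.27 and 0.43, with the groups apart. Psmc3ip, a factor of meiotic recombination, was at -0.58 and did not pass the test.

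The changes of proteasome genes varied with the brightness of their probes. Below a mean log2 level of 0 the median change was -1.60 (3 genes), between 0 and 2 it was -0.42 (13 genes), between 2 and 4 it was -0.23 (15 genes), and above 4 it was 0.18 (14 genes). Over all genes tested the medians in the same ranges were -0.01, -0.12, -0.12 and 0.30. Without SA-H array 4 the medians of the proteasome genes were -0.85, -0.33, -0.15 and -0.075, so that the value above 4 turned below 0. The 3 genes below 0, Psmd9, Psme4 and Psmf1, passed the filter only through the MOD group, and their median is no measure of a trend. Of the 7 lower genes 6 had a mean level below 2, and the only higher gene, Psme2, lay above 4. Across the 45 genes, which share the same 6 arrays, Pearson's r of change with mean level was 0.63 and Spearman's rho 0.54, against an r of 0.04 over all 14474, and r was 0.41 without SA-H array 4. Psmd9, Psme4 and Psmf1, for which the filter favours a negative change, are included in r and rho, and no value was computed without them. Brightness depends on the probe as well as on the RNA, and its part in the group medians was not tested.

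**Figure D5:**
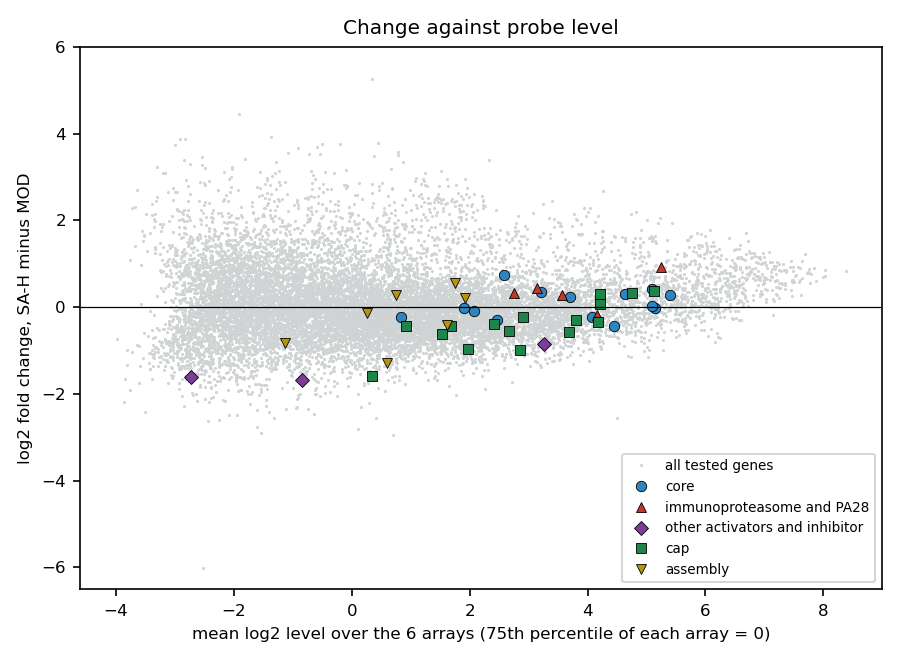
Log2 fold change (SA-H minus MOD) against mean log2 level over the 6 arrays, with proteasome genes in colour by group and all tested genes in grey. The 14 proteasome genes above a level of 4 have a median change of 0.18 and the 13 between 0 and 2 one of -0.42, which were -0.075 and -0.33 without SA-H array 4.

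Proteins that work with the proteasome were mostly below 0 as well. Of 15 tested partners 13 had a negative change (52.3% of all genes), 5 were lower (12.5% of all) and 0 higher (10.8% of all), with a median of -0.47. The lower ones were the deubiquitinase Usp14 (-0.79), the ubiquitin ligase Ube3c (-0.99), Txnl1 (-1.09), Zfand5 (-1.02) and the shuttle Ubqln1 (-0.77). Pomp, the maturation factor of the core, was at 4.44, 4.18 and 4.22 against 5.72, 4.39 and 5.11 (change 0.79) and did not pass the test. The ubiquitin receptor Adrm1, a cap subunit listed here because of its symbol, was not tested because of an outlier spot. With that spot kept its change was 1.20, past an unadjusted p of 0.05. The lid subunit Sem1 is listed here for the same reason (0.45). Of 7 tested regulators of proteasome gene transcription 2 were lower (12.5% of all genes), Nfyb (-1.12), a subunit of the factor that binds CCAAT, and Mafk (-0.60), a partner of Nfe2l1 and Nfe2l2 at antioxidant elements. Of the other subunits of that CCAAT-binding factor, Nfyc was at -0.66 and Nfya at 2.09, the largest change in the list, and neither passed the test. Nfe2l2 was at -0.28, and Nfe2l1 and Ngly1 were too dim to test.

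Ubiquitin genes and the unfoldase p97 went in both directions. Of 12 tested, 2 were higher (10.8% of all genes) and 3 lower (12.5% of all), among the former Vcp, which codes for p97 (change 0.95, standard error 0.39, limma adjusted p = 0.20). Vcp was at 3.54, 3.80 and 3.76 against 5.45, 3.98 and 4.52, with the groups apart and array 4 highest. The 3 lower genes were the p97 cofactors Nsfl1c (-0.77) and Faf1 (-0.79) and the ubiquitin-activating enzyme Uba1 (-0.63).

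In class I antigen processing, which takes up the peptides that the proteasome makes, 3 of 11 were lower (12.5% of all genes) and 1 was higher (10.8% of all). Calr (-1.26) and Pdia3 (-1.09) of the peptide-loading complex and the trimming peptidase Erap1 (-0.61) were lower, and tapasin (Tapbp, 0.85) was higher. Tap1 and Tap2, the neighbours of Psmb8 and Psmb9, were at -0.75 and 0.37 and did not pass the test. None of 10 tested genes of the interferon gamma response passed the test with limma, also at an unadjusted p under 0.05 (12.5% of all genes were lower and 10.8% higher). Their median was 0.02, with Gbp2 at -0.91, Cxcl9 at -0.42, Socs1 at 0.35 and Ifng at 0.28. Per gene, 3 or fewer arrays a group set the precision throughout.

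A table of processed values was also deposited for the same 6 arrays, and it did not follow their scans. Over 13896 probes, the deviations of each column from the probe means correlated with those of its own scan at r of -0.27 to 0.47, and 2 of the 6 columns fitted their own scan best. Another background correction of the same scans (normexp) gave r of 0.946 to 0.968. With those values 0 proteasome genes were lower, where 16.0% of all tested were lower, and 2 were higher, Psmb10 (0.56, limma adjusted p = 0.028) and Psmb8 (0.36), where 16.4% of all were higher. None of the 8 calls above was kept. The scans are used throughout, and which of the sets is right for each array was not tested.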

How the data were processed

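Each 1-colour array was read by the authors with Agilent Feature Extraction 11.0.1.1, and the deposited intensity values are those this program gives after subtracting the background and gradients. The deposited value table holds log2 values whose making is not given in the sources used here. Symbols came from RefSeq accessions.

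Signals were taken as log2 minus the 75th percentile of the array, without outlier spots. A probe with an outlier spot on any array was left out of the fit (477 kept probes). A probe was kept if all 3 arrays of at least 1 group had it well above background, and the brightest kept probe stood for its gene. Changes (SA-H minus MOD) were fitted with limma 3.58.1 in R 4.3.3 and adjusted by Benjamini-Hochberg over all tested genes, and a gene is called here at an unadjusted p under 0.05, since 0 passed after adjustment. The method was tested on simulated data. Other steps used Python 3.11.15, pandas 2.3.3 and matplotlib 3.10.9.

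Members and lists were chosen with earlier results of these data known. Full values are given for the catalytic subunits, their immunoproteasome counterparts, PA28, every member with an unadjusted p under 0.05, and the largest rise and fall of each subgroup. Of other lists, values are given for up to 4 genes with the smallest p. To these, Pomp, Sem1, Nfya, Nfe2l2, Adrm1, Cd22, Tap1, Tap2, Ubqln1 and Vcp were added after their values were seen. Alternatives were scaling, background, filters, probe choice, batches, an ordinary ANOVA, the value table and each array left out. The values of some genes on these lists are not reported here.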

Additional observations from a re-analysis of the deposited data

How the results depend on the processing

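The counts of lower and higher proteasome genes were 7 and 1 (12.5% and 10.8% of all genes tested). With the arrays scaled by their median the count higher was 0 (6.95% of all). The median changes of the core, the cap, and the immunoproteasome and PA28 were then -0.32, -0.73 and -0.0046, relative to a shift of all genes to -0.36. With no filter on dim probes 4 genes were lower (3.84% of all). With the scan day as a block 2 were higher (17.4% of all). With the deposited value table, none (0) were lower (16.0% of all) and 2 higher (16.4% of all), and the cap median was -0.18. When each array was left out in turn, 4 to 8 genes were lower and 0 to 3 higher, with the fewest lower (4) without MOD array 1 or MOD array 3, none higher without MOD array 1 and 3 higher without SA-H array 5. Over all genes tested, the share lower ran from 5.46% without MOD array 1 to 13.9% without SA-H array 4. The share higher ran from 5.62% without MOD array 1 to 13.5% without SA-H array 5. The change of Psmb8 minus Psmb5 ranged from -0.27 to 0.70 with an array left out, the former without SA-H array 5, and was -0.81 within scan day 2, where Psmb9 minus Psmb6 was -0.18. Under the other settings the count lower was 5 to 9 (12.1% to 14.2% of all), with 5 among probes above background on all 6 arrays and 9 with the mean of the probes. The count higher was 1 (7.34% to 12.6% of all). Apart from scaling by the median (-0.32), the core median, near 0, ranged from -0.098 to 0.24 and so had no direction. It was negative with quantile normalization (-0.067), normexp (-0.076) and the value table (-0.098). It was also negative without MOD array 3 (-0.033), SA-H array 4 (-0.075) or SA-H array 6 (-0.0072). The causes of these differences were not tested.

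None of the single genes that turned direction was among the 8 called. Scaling by the median, which took the same 0.321 from every gene, gave -0.0046 for Psmb10, -0.033 for Psmb5, -0.29 for Psmb6, -0.043 for Psmb9, -0.051 for Psmd10 and -0.012 for Psmd3, each above the overall median of -0.36. Quantile normalization gave -0.10 for Psmb5 and -0.31 for Psmb6, and normexp on the median signals, chosen after seeing the data because the files hold no mean signal, gave -0.14 for Psmb6. The mean of the probes gave -0.12 for Psmd10. The value table gave -0.0066 for Psma3, -0.16 for Psmb5, -0.11 for Psmb6, -0.22 for Psmc3, -0.015 for Psmd3, 0.14 for Psme1, 0.0082 for Psmg1 and -0.081 for Psmg2. With an array left out, Psmb2 ranged from -0.020 to 1.44, Psmb5 from -0.060 to 0.67, Psmb6 from -0.16 to 0.23, Psmc3 from -0.062 to 0.69 and Psmd3 from -0.049 to 0.67, each lowest without SA-H array 4. Psmb6 was also -0.028 without MOD array 2.

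Of the called genes, Psmd14, Psmd5 and Psmc6 lost the call only in the value table, of 16 alternatives each. Psmf1 lost it in 2 of 15, Psme2 in 3 of 16, Psme4 in 5 of 15, Psmd6 in 8 of 16 and Psmd11 in 11 of 16. These tallies do not include an ordinary ANOVA, the kind of test named in the study's methods. It also called 7 genes lower (12.2% of all), but not the same 7. Psmd6 (ANOVA unadjusted p = 0.095) and Psme4 (0.12) lost the call, and Psmd7 (0.038) and Psmd8 (0.0022) gained it. Psmf1 and Psme4 could not be tested among probes above background on all 6 arrays. No paired analysis was possible because the array numbers differ between the groups (1 to 3 and 4 to 6). Dim genes are limited by signal over background, as for Psmf1 and Psme4 on SA-H array 4.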
